A study of Mus musculus with 574 samples.

Results

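The first neurons of the E10.5 ventral midbrain were described against the other cells taken at the same stage. E stands for embryonic day, and E10.5 is early in the making of neurons in this region. First neurons were all E10.5 single cells with Stmn2 at an RPKM of at least 10, where RPKM is reads scaled to transcript length in kilobases and to library size in M reads, M standing for 1000000. This rule found 12 cells, 8.76% of the E10.5 cells, and the rest of the E10.5 cells formed the comparison group. The series holds 550 single cells and 24 pools of 100 cells, 574 libraries in all, and the 12 first neurons are 2.18% and the other E10.5 cells 22.7% of the single cells. The tissue was ventral midbrain of C57BL/6 embryos, heterozygous for Lmx1a-EGFP, a reporter in which cells that express the homeobox gene Lmx1a carry green fluorescent protein (GFP), and every group below shares this genotype. Further groups used here are the single cells of E11.5, E12.5 and E13.5, which are 16.4%, 32.4% and 26.4% of the single cells, and 6 pools each of E13.5 GFP positive, E13.5 GFP negative, E10.5 GFP positive and E10.5 GFP negative cells. Smart-seq2, which copies whole transcripts into cDNA, made each cell or pool a library of its own. The labels name no embryo or litter, so the E10.5 cells count as 1 sample, cells are not replicates, and no p-value is given for them. Counts of other cells below are out of all other E10.5 cells unless a set is named.

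Neurons of the ventral midbrain arise from dividing progenitors that line the ventricle. Notch signalling holds progenitors in the dividing state, while proneural factors of the basic helix-loop-helix (bHLH) family drive a cell to leave the cell cycle, move away from the ventricle and grow an axon. Stmn2 encodes a stathmin that acts on microtubules in growing axons and is widely used as a mark of newly made neurons.

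Stmn2 chose the cells, so its values are a description only. In falling order the 12 first neurons had 2373, 2189.5, 2175, 1857, 1463, 1228, 326, 262, 223, 210.3, 206 and 52.2 RPKM, and they are called cell 1 to cell 12 in that order. The nearest cells outside the threshold had 8.14, 7.46 and 1.40 RPKM. A threshold of 20 or 50 RPKM chose the same 12 cells, and one of 5 chose 14. Cells 1 to 6 stood well above the other 6 in Stmn2.

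The label was checked against Tubb3, the neuronal beta tubulin, and Nhlh1, a bHLH factor switched on as neurons are born. Tubb3 was at 3118 RPKM or more in cells 1 to 8, at 816 in cell 9 and 1352 in cell 11, but at 15.5 in cell 10 and 0 in cell 12. At a Tubb3 RPKM of at least 1000, 9 of 12 first neurons passed, against 5 other cells (4%). Nhlh1 was at an RPKM of at least 10 in 5 of 12 first neurons, against 3 other cells (2.4%), with a highest value of 387 in first neurons and 52.8 in other cells. Cells 10 and 12 had 12 and 9 of the 21 pan-neuronal genes described below at 10 RPKM or more. The other 10 first neurons had 14 to 21, so the name holds less well for these 2 cells. Cells 9 and 11 had 20 and 16 of these genes, but each also had 13 of 14 mitosis genes at 10 RPKM or more. The name is therefore uncertain for them too. Cells 9 to 12 stay in the group, as the rule puts them there.

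Depth and the reporter differed between the groups before any gene is considered. The estimated depth, read from the step between the lowest values of a library and therefore rough, had a median of 3.28 M reads in first neurons and 1.29 M reads in other cells. An RPKM of 10 for a transcript of 2 kilobases is about 25.98 reads at the median E10.5 depth and 13.4 reads in the shallowest first neuron. The 12 deepest E10.5 cells, at 4.92 to 7.66 M reads, carry the highest cell numbers in the titles of this stage, with no other E10.5 cell among them. The labels do not say what the number marks. First neurons were 6 of these 12 deep cells (50%, 95% exact Clopper-Pearson interval 21.1 to 78.9) and 4.8% of the shallower ones (6 cells, 1.78 to 10.2), intervals that cover counting error only. EGFP was at an RPKM of at least 10 in 1 of the 12 deep cells and in 81.6% of the shallower ones. Cells 1, 2, 3, 5, 6 and 8 are the deep first neurons. Results for the named genes and some of the lists are therefore also given within each depth set. The part of depth in any result was not tested.

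Markers of other cell types were counted in each cell. Of 15 such markers, 1 or more was at an RPKM of at least 10 in 4 of 12 first neurons (33.3%) and 13.6% of other cells, and 2 or more in 0 first neurons and 1.6% of other cells. Summed over 8 red blood cell markers, the lowest, median and highest first neuron had 0, 0 and 16.03 RPKM, against 0, 0 and 223 in other cells, and 6 of the 8 markers were at 0 in every first neuron. For 6 endothelial markers the highest sum was 3.78 in first neurons and 457 in other cells, with 5 of 6 at 0 in every first neuron. For 8 microglia and macrophage markers it was 2.03 in first neurons and 3.41 in other cells, with 1 of 8 at 0 in every first neuron. For 8 mesenchyme markers it was 67.04 in first neurons and 233 in other cells, with 3 of 8 at 0 in every first neuron.

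Each gene was compared by the difference of its mean log2(RPKM + 1), first neurons minus other cells, a scale that understates the change of low genes. Of 13778 genes that reached 1 RPKM in 7 or more E10.5 cells, 2341 (17%) were higher by at least 1, which is 2-fold, and 1094 (7.94%) lower by at least 1. The median difference over all of them was 0.08. In the cells, gene lists below are counted over all members in the data, including those that missed this filter, unlike these shares. Because the same cells were chosen by a neuronal gene, these differences describe the chosen cells and carry no test.

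The 20 genes with the largest positive differences, among genes at an RPKM of at least 10 in 75% of first neurons, were led by a long non-coding RNA. D930028M14Rik, on chromosome 7 from 25152457 to 25156630 (GRCm38), had a lowest, median and highest value of 0, 504 and 2680.4 RPKM in first neurons, against 0, 0 and 1342 in other cells, a difference of 7.65. It was at an RPKM of at least 10 in 10 first neurons, cells 10 and 12 being at 0, and in 3 other cells (2.4%). The groups overlap only through these few cells at either end. This RNA lies within the span of Pou2f2 on the other strand. A second long non-coding RNA, Gm16551 on chromosome 9 from 74848437 to 74852872, had 0, 116.01 and 933 RPKM in first neurons and 0, 0 and 666 in other cells, a difference of 5.54, and was at 10 or more in 9 first neurons and 3 other cells.

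Transcription factors were also among these 20. Nhlh2, the close relative of Nhlh1, had 0, 87.95 and 602 RPKM in first neurons and 0, 0 and 224 in other cells, a difference of 5.495, with 10 first neurons and 4 other cells at 10 or more. Uncx, a homeobox gene, had 0, 123.9 and 623 RPKM in first neurons and 0, 0 and 344 in other cells, a difference of 5.53, with 10 first neurons and 5 other cells at 10 or more. In both genes nearly all first neurons lay above nearly all other cells.

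The 20 also held genes for membranes, vesicles and the cytoskeleton. Rtn1, a reticulon of the endoplasmic reticulum, had 0, 204 and 2905 RPKM in first neurons, against 0, 0 and 267 in other cells, a difference of 6.59. Nsg2, a protein of neuronal endosomes on chromosome 11 from 31999704 to 32059211, had 34.03, 342 and 911 RPKM in first neurons and 0, 0 and 888 in other cells, a difference of 6.55. All 12 first neurons and 28 other cells (22.4%) had Nsg2 at 10 or more, and Crmp1 and Gpc2 were likewise at 10 or more in all 12. Crmp1, which relays semaphorin signals to the cytoskeleton, had 52.9, 806 and 2265 RPKM in first neurons and 0, 1.39 and 1101 in other cells, with 58 other cells at 10 or more. Ina, the neuronal intermediate filament internexin alpha, had 0, 216 and 860.1 RPKM in first neurons and 0, 0 and 96.2 in other cells, a difference of 5.64. Only 2 other cells had Ina at 10 or more, as against 9 first neurons, and the same counts held for Rab3a, a GTPase of synaptic vesicles.

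Tubb3 was also common among the other cells. It had 0, 3178 and 4131 RPKM in first neurons and 0, 1.44 and 4271 in other cells, a difference of 6.32, and 54 of the other cells had it at 10 or more. The remaining members were the actin-binding gene Tagln3 (6.47), the G protein subunit gene Gng3 (6.25), the stathmins Stmn3 (6.22) and Stmn4 (4.91), Mllt11 (5.23), the matrix protein gene Edil3 (5.06), the glypican gene Gpc2 (4.96), Igfbpl1 (4.72), Trp53inp2 (4.70) and the seipin gene Bscl2 (4.64). The next genes outside the 20 were Elavl4 (4.55) and Tmem163 (4.51). Gng3 and Bscl2 overlap on opposite strands of chromosome 19, as do D930028M14Rik and Pou2f2, and whether counting used the strand is not given, so these values are uncertain. No other cell had 15 or more of the 20 genes at an RPKM of at least 10, whereas 10 of the 12 first neurons did, a description only, since these cells and this level chose the genes. The lowest, median and highest number was 8, 19 and 20 in first neurons and 0, 3 and 14 in other cells.

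**Figure D1:**
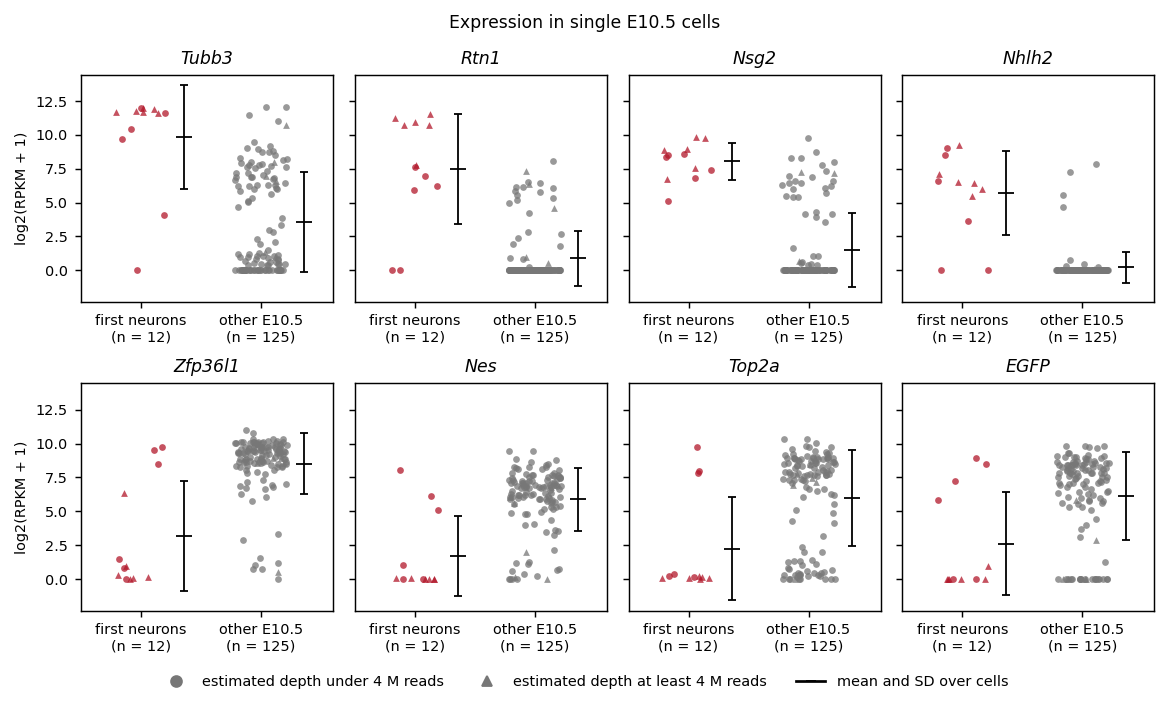
Levels of 8 genes in each E10.5 cell, as log2(RPKM + 1) on the vertical axis, with the 12 first neurons left of the other E10.5 cells in each panel. Circles are cells under and triangles cells at or over an estimated depth of 4 M reads, and bars give the mean and SD over cells. Tubb3, Rtn1, Nsg2 and Nhlh2 are higher in first neurons (differences 6.32, 6.59, 6.55 and 5.495), and Zfp36l1, Nes, Top2a and EGFP lower (-5.35, -4.18, -3.70 and -3.49).

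The promoters of 3 of these genes are shown because each holds both of the bHLH-type letter strings that were searched. In RefSeq, GRCm38.p6, a promoter window ran from 250 bases before to 50 after a listed start, and 17 of the 20 genes had one. CAGCTG was in 5 of the 17 windows (29.4%), against 2 of 16 windows of the 20 lower genes described next and 16.1% of all 27025 promoters. CAGATG, or CATCTG on the other strand, was also in 5 of the 17 (29.4%), against 0 of those 16 and 17.2% of all promoters. The windows below are all on the plus strand, at chr7:25154819-25155118 for D930028M14Rik, chr11:32000169-32000468 for Nsg2 and chr3:102009895-102010194 for Nhlh2, and in all 3 the listed start lies inside the outer span of the gene. Capitals mark the strings found, which are a description of letters and not of binding.
D930028M14Rik: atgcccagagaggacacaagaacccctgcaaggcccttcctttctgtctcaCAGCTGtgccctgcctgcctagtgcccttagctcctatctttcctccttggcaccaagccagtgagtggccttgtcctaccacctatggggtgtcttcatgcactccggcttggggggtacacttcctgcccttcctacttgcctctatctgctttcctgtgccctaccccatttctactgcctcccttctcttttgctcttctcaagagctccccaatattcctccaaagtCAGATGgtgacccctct
Nsg2: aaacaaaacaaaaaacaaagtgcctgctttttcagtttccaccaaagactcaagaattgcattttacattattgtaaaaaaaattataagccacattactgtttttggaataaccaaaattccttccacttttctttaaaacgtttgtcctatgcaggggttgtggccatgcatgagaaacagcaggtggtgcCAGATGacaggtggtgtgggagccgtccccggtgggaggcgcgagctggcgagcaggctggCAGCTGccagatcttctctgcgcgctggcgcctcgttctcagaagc
Nhlh2: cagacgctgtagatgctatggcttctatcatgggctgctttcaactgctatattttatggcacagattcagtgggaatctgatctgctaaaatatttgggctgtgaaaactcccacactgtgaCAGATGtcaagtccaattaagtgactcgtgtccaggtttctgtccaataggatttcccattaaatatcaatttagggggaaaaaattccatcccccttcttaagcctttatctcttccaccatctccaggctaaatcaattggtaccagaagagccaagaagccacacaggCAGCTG

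Of the 20 genes with the most negative differences, among genes at an RPKM of at least 10 in 50% of other cells, the 3 most negative are given first. Zfp36l1, an RNA-binding protein that speeds the decay of messages, had 0, 0.834 and 841 RPKM in first neurons, against 0, 597 and 2016 in other cells, a difference of -5.35. Id3, which blocks bHLH factors, had 0, 0.314 and 811 RPKM in first neurons and 0, 498 and 2724 in other cells (-5.17). Wls, needed for the secretion of Wnt ligands, had 0, 0.204 and 294 RPKM in first neurons and 0, 216 and 814 in other cells (-4.86). For each of these the median first neuron was close to 0 while most other cells were above 100, and the highest first neurons were cells 9, 10 and 12.

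The filament gene Nes, a standard progenitor mark, had 0, 0.0362 and 264 RPKM in first neurons and 0, 99.7 and 707 in other cells (-4.18), with 3 of 12 first neurons and 85.6% of other cells at 10 or more. Top2a, a topoisomerase of dividing cells, had 0, 0.151 and 853 RPKM in first neurons and 0, 207 and 1316 in other cells (-3.70). Nes and Top2a were both under 10 in 8 of 12 first neurons and 10 other cells (8%). The 20 also held genes of DNA replication, the helicase subunits Mcm4 (-4.01), Mcm6 (-3.72) and Mcm3 (-3.56), the polymerase gene Pola1 (-4.14), the ribonucleotide reductase gene Rrm2 (-3.996) and the fork protein gene Tipin (-3.53). The others were Igfbp2 (-4.26) and Igfbp5 (-3.70), which bind insulin-like growth factors, Tmem47 (-4.03), the cyclin gene Ccnd2 (-3.99), the galactokinase gene Galk1 (-3.94), Tpbg (-3.76), the serine synthesis gene Phgdh (-3.55), the glucose transporter gene Slc2a1 (-3.54) and the cilium regulator Foxj1 (-3.53). Just outside lay Ccnd3 (-3.48) and Crb2 (-3.44).

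Pan-neuronal genes, 21 members for the cytoskeleton and growth of neurons, were all higher in first neurons by at least 1, with a median difference of 3.77. The 20 members that passed the filter were all higher too (median 3.71). Doublecortin, Dcx, which steadies microtubules in migrating neurons, had 0, 34.8 and 218.5 RPKM in first neurons and 0, 0 and 285 in other cells, with 9 first neurons and 4 other cells at 10 or more. The growth cone gene Gap43 had 0, 283 and 2502 RPKM in first neurons and 0, 0 and 356 in other cells (5.81), but only 8 of 12 first neurons reached 10. Later marks of axons were uneven among first neurons. Mapt, which encodes tau, was at 10 or more in 6 first neurons and 1 other cell, and the neurofilament gene Nefl in 6 first neurons and 0 other cells, a count that allows up to 2.4% of them at that level. In both genes cells 1 to 5 and cell 9 were the high ones.

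Of 18 proneural and neurogenic transcription factors, 14 were higher by at least 1 and 0 lower, with a median difference of 2.60. Among the 15 that passed the filter, 13 were higher (median 2.63). The members differed in which cells carried them. Neurog1, a proneural bHLH factor, was at 67.4 RPKM in cell 1, 313 in cells 6 and 8, 19.1 in cell 11 and 58.2 in cell 12, and under 1 in the other 7, against 2 other cells at 10 or more (2.61). Neurod1, which follows the proneural factors, was at 10 or more in 5 first neurons and 4 other cells (2.76). Ebf2, an early B cell factor family member of new neurons, was at 10 or more in 7 first neurons and 9 other cells (3.63), and the zinc finger gene Myt1 in 7 first neurons and 10 other cells (3.93). Neurog2, a proneural gene of the ventral midbrain, differed by 0.70, with 3 first neurons and 12 other cells at 10 or more.

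The 15 Notch pathway genes went both ways, with 4 higher, 6 lower and a median difference of -0.06. Among ligands, Dll3, which acts within the signalling cell, had 0, 87.9 and 858 RPKM in first neurons and 0, 0 and 2370.4 in other cells (4.11). Dll1, the ligand shown to neighbouring cells, was at 10 or more in 6 first neurons and 23 other cells (1.80), and Mfng, a sugar transferase that modifies Notch signalling, in 8 first neurons and 51 other cells (1.73), while Lfng, of the same family, was lower (-1.58). The 3 receptors were lower, at -2.03 for Notch1, -2.46 for Notch2 and -1.97 for Notch3. Among Hes genes, Hes1, a repressor of proneural genes, had 0, 0.555 and 1081 RPKM in first neurons. In other cells Hes1 had 0, 105.4 and 1309 RPKM (-3.28). Hes6, which opposes Hes1, had 0.143, 296 and 1312 RPKM in first neurons and 0, 28.8 and 2653 in other cells (3.38). Hes5 was at 10 or more in only 2 first neurons, at 146.4 RPKM in cell 9 and 3085 in cell 12, and in 40 other cells (-1.16).

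Cell cycle genes were lower as a group in the full set of cells. All 12 DNA replication genes were lower by at least 1 (median -2.503), and 13 of 14 mitosis genes (median -2.19). Of 8 cell cycle exit genes, 3 were higher and 1 lower (median 0.03). Cdkn1c, an inhibitor of cyclin-dependent kinases, had 0, 158.3 and 559 RPKM in first neurons and 0, 22.9 and 673 in other cells (2.62), and Gadd45g, a growth arrest gene, was at 10 or more in 7 first neurons and 19 other cells (3.30). Of 19 neural progenitor genes, 11 were lower and 1 higher (median -1.43). Among the 18 that passed the filter, 11 were lower and 1 higher (median -1.66). The filament gene Vim stayed at 10 or more in all 12 first neurons, at 117.8 to 1660.5 RPKM, although it was lower on average (-1.89). The single higher member was Gpm6a (3.76), a membrane glycoprotein that neurons also make.

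Factors that set neuronal splicing and message stability also differed. Of 14 RNA-binding and splicing genes, 10 were higher and 1 lower (median 2.48). Elavl4, a neuronal RNA-binding protein, had 35.02, 191 and 712 RPKM in first neurons and 0, 2.71 and 515 in other cells, and was at 10 or more in all 12 first neurons and 53 other cells. Celf3 (4.48) and the splicing factor gene Srrm4 (3.70) were at 10 or more in 10 and 9 first neurons, against 17 and 19 other cells. The 1 lower member was Ptbp1 (-2.82), which represses neuronal exons and gives way to Ptbp2 in neurons, where Ptbp2 differed by 0.85. Rest, a repressor of neuronal genes on the progenitor list, was at 10 or more in 2 first neurons, cells 9 and 12, and 56 other cells (-1.43).

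Chromatin, synaptic and guidance genes were carried by some of the first neurons. In the BAF chromatin remodeller, whose neuronal form takes up Actl6b in place of Actl6a, Actl6b was at 93.2, 333, 142.1 and 37.2 RPKM in cells 1 to 4 and at 0 in the other 8 first neurons, with 1 other cell at 10 or more (2.24), while Actl6a differed by -0.94. Of 16 synaptic vesicle and release genes, 14 were higher and 0 lower (median 2.12). Snap25, a membrane fusion protein of synapses, was at 10 or more in 6 first neurons and 4 other cells (3.16), whereas Scg2 was listed at 0 in every E10.5 cell. Of 20 axon guidance and adhesion genes, 9 were higher and 4 lower (median 0.36). Among the 14 that passed the filter, 7 were higher and 4 lower (median 0.75). The adhesion genes Cntn2 and L1cam were at 10 or more in 6 and 5 first neurons and in 0 other cells, where the highest Cntn2 value was 0.0794 RPKM. The guidance cues Slit1 (-2.46) and Slit2 (-2.81), which are made by floor plate cells, were lower.

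**Figure D2:**
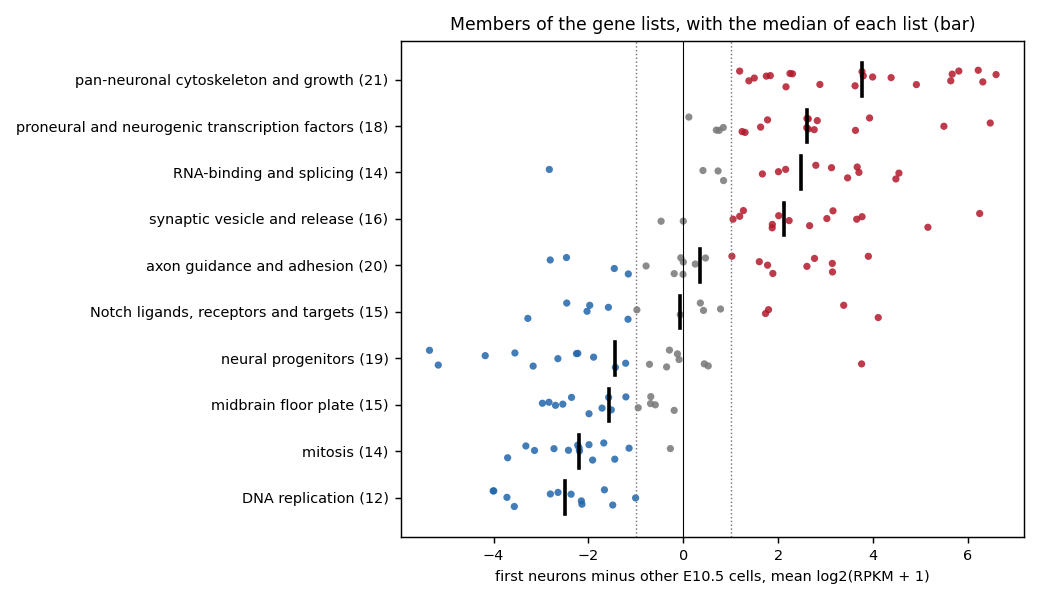
Differences of mean log2(RPKM + 1), first neurons minus other E10.5 cells, on the horizontal axis for each member of 10 gene lists, 1 list per row, with a bar at each list's median. Red points are at 1 or more, blue points at -1 or less and grey points between. All 21 pan-neuronal genes are red and all 12 DNA replication genes blue, while the Notch list holds both.

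The reporter and Lmx1a were under an RPKM of 10 in most first neurons. EGFP had a lowest, median and highest value of 0, 0 and 478 RPKM in first neurons and 0, 172.9 and 918 in other cells, and was at 10 or more in 4 of 12 first neurons (33.3%, exact interval 9.92 to 65.1) and 99 other cells (79.2%, 71.03 to 85.9). Lmx1a itself was at 10 or more in 4 first neurons and 94 other cells (-2.83), and 5 first neurons and 83.2% of other cells had at least one of the pair. Of 15 midbrain floor plate genes, 10 were lower and 0 higher (median -1.57). Otx2, which patterns the midbrain, had 0, 0.762 and 522 RPKM in first neurons and 0, 265 and 1178 in other cells (-2.97), but Foxa2, a floor plate factor, was at 10 or more in 8 first neurons and 77 other cells (-0.19). Among deep cells EGFP was at 10 or more in 0 of 6 first neurons and 1 of 6 other cells, and among shallower cells in 4 of 6 first neurons and 98 other cells.

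Some transcription factors of ventral cell groups were higher in first neurons, but most genes listed for such groups were not. Of 12 genes listed for the red nucleus and basal plate, 3 were higher by at least 1 and 0 lower (median 0.01). Only 3 of these 12 passed the filter, and 2 of those were higher. The list for the subthalamic and mammillary lineage had 2 of 10 members higher and 3 lower (median -0.95). Lhx5, a LIM homeobox gene, had 0, 49.7 and 294 RPKM in first neurons and 0, 0 and 336 in other cells (3.85), with 8 first neurons and 10 other cells at 10 or more. Sim1, a factor of hypothalamic and basal neurons, was at 10 or more in 7 first neurons and 13 other cells (2.73), and Nkx6-1, a basal plate factor, in 6 first neurons and 25 other cells (2.27).

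Marks of neuron classes were sparse. Slc17a6, the vesicular glutamate transporter, was at 36.7, 69.7, 35.8 and 54.1 RPKM in cells 1, 2, 3 and 9 and under 10 in the others, with 1 other cell at 10 or more (2.15). Gad1 and Gad2, the enzymes of GABA synthesis, were under 10 in all 12 first neurons, a count that allows up to 25% of such cells. Gad1 or Gad2 was at 10 or more in 2 other cells (1.6%). Of 12 GABAergic genes, each first neuron had 0 or 1 at 10 or more. The other cell with Stmn2 at 7.46 RPKM, just under the threshold, had 4, so this result depends on where the threshold lies. The dopamine neuron gene Nr4a2 reached 81.7 RPKM in cell 4 alone and 10 or more in 8 other cells, and Th, which makes the dopamine precursor, was at 10 or more in 0 first neurons and 15 other cells. Cell 7 was the only first neuron with the motor neuron genes Isl1 (728 RPKM) and Phox2a (73.1). Nkx2-1, a hypothalamic factor, was at 330.4 and 185 RPKM in cells 1 and 2, and Barhl1, of the subthalamic lineage, at 282 and 229 in cells 9 and 10. Both were also common outside the group, with Nkx2-1 at 10 or more in 4 first neurons and 33 other cells and Barhl1 in 2 first neurons and 35 other cells.

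The 12 first neurons were not alike. Cells 1 to 8 had EGFP at 0.98 RPKM or less and 0 or 1 of 14 mitosis genes at 10 or more, and carried 14 to 21 of the 21 pan-neuronal genes. Cells 9 to 12, the lowest in Stmn2, had EGFP at 150, 478, 56.5 and 356 RPKM, with 13, 3, 13 and 14 mitosis genes and 12, 10, 5 and 14 of the 19 progenitor genes. They carried 20, 12, 16 and 9 pan-neuronal genes. Cell 9 thus had nearly the full neuronal set beside a nearly full mitotic set, and cell 12 few neuronal genes beside the whole mitotic set. The cell just outside the threshold, at 8.14 RPKM of Stmn2, had 13 of both sets, and the one at 7.46 had 13 pan-neuronal and 2 mitosis genes. Genes at 1 RPKM or more numbered 9170, 5969, 7109 and 7323 in cells 9 to 12, and 3993 to 6876 in cells 1 to 8. Other cells had a lowest, median and highest number of 1864, 5746 and 9774. No doublet caller was run, and whether cells 9 to 12 hold more than 1 cell was not tested.

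**Figure D3:**
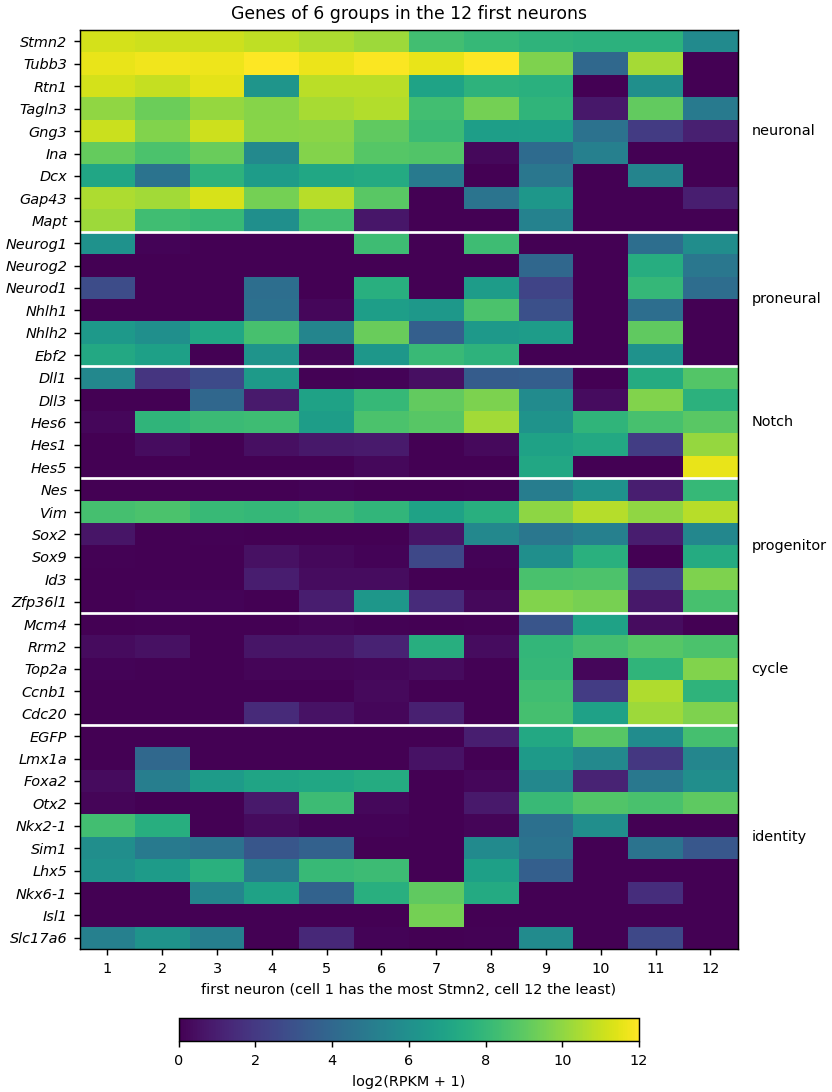
Levels of 41 genes, as log2(RPKM + 1) from 0 (dark) to 12 (yellow), in the 12 first neurons, with cell 1 (2373 RPKM of Stmn2) at the left and cell 12 (52.2 RPKM) at the right. Rows are grouped as neuronal, proneural, Notch, progenitor, cell cycle and identity genes. Progenitor genes other than Vim are dark in most of cells 1 to 8 and in cell 11, and brighter in cells 9, 10 and 12. Most cycle genes are brighter in cells 9, 11 and 12 than in cells 1 to 8, and EGFP is present in cells 9 to 12.

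The differences were recomputed within sets of cells. Among deep cells (6 first neurons against 6 other cells) 27.9% of genes tested were higher and 27.001% lower, and among shallower cells (6 first neurons) 22.2% were higher and 6.39% lower. The 20 genes of each direction were chosen over these same cells, so their sign within the sets was largely fixed by the choice. All 20 higher genes were at 1 or more in both sets, with a median of 6.46 among deep and 4.23 among shallower cells. Of the 20 lower genes, 19 were at -1 or less among deep cells (median -4.90), where Foxj1 was at 0, and 18 among shallower cells (median -2.40), where Rrm2 (-0.70) and Ccnd2 (-0.82) were not. The pan-neuronal list had 20 of 21 members higher and 1 lower among deep cells (median 5.61) and 18 of 21 higher among shallower ones (1.90). Mitosis genes were lower in 14 of 14 among deep cells (median -4.89), and in 4 of 14 among shallower cells (-0.18), with 1 higher. Among cells with EGFP or Lmx1a at 10 or more (5 first neurons), 0 of 14 were lower and 5 higher (0.35), near the background of that set, in which 30.2% of all genes were higher and the median over all genes was 0.40. Among cells with both under 10 (7 first neurons against 21 other cells) 14 of 14 were lower (-4.41), with 16.4% of all genes lower. The Notch list had a median of -2.05 among deep and 0.41 among shallower cells. DNA replication genes were lower in 11 of 12 among deep cells (median -4.37) and in 6 of 12 among shallower cells (-0.90), with 0 higher in either. Of 19 progenitor genes, 15 were lower and 1 higher among deep cells (-2.32), and 8 lower and 3 higher among shallower ones (-0.23). Of 15 floor plate genes, 6 were lower and 1 higher among deep cells (-0.43), and 6 lower and 0 higher among shallower ones (-0.75). With only the 10 first neurons that had Tubb3 at 100 or more, 21 of 21 pan-neuronal genes were higher and 13 of 14 mitosis genes lower. Over all genes of that set, 17.97% were higher and 11.3% lower. Tubb3 is itself on the pan-neuronal list, and the cells left out, 10 and 12, carried the fewest of its genes. These counts were therefore largely fixed by the choice.

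The same split by Stmn2 was then made at later stages, in cells that the E10.5 rule did not use. Cells with Stmn2 at 10 or more were 8.76% at E10.5 (exact interval 4.61 to 14.8), 57.8% of the cells of E11.5 (46.9 to 68.1), 75.8% of those of E12.5 (68.9 to 81.9) and 82.1% of those of E13.5 (74.8 to 87.9). Each stage is 1 sample, and median depths were 1.30, 0.747, 1.41 and 1.78 M reads in that order, so the part of depth was not tested. Over all genes tested, 7.96% were higher and 15% lower by at least 1 in Stmn2 cells at E11.5, 8.2% were higher at E12.5, and 13.1% were higher and 9.78% lower at E13.5. Of the 20 genes higher in first neurons, 18, 16 and 18 were higher by at least 1 at E11.5, E12.5 and E13.5, with medians of 3.40, 3.70 and 4.35. Of the 20 lower genes, 20 at E11.5 and 19 at E13.5 were lower by at least 1, the exception being Mcm4 at E13.5 (-0.46). Their medians were -2.82, -2.53 and -2.73 at E11.5, E12.5 and E13.5, and at E12.5 they ran from -5.95 to -1.36. The median over all genes at E12.5 was -0.09. The share of all genes lower at E12.5 is not given here, so this range lacks that background.

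The exceptions among the higher genes were led by the non-coding RNAs. D930028M14Rik was at 10 or more in 83.3% of Stmn2 cells at E10.5, and in 15.4%, 8.15% and 2.52% at the 3 later stages, with differences from the other cells of the stage of 7.65, 1.14, 0.77 and 0.21. Gm16551 was at 10 or more in 75%, 7.69%, 8.15% and 0% of Stmn2 cells in the same order, the 0% allowing a share of up to 2.52%, with differences of 5.54, 0.66, 0.59 and 0.01. In both genes the share was highest at E10.5, a stage with only 12 such cells. Both were named for their high shares and differences in these 12 cells, so part of the fall was fixed by that choice. How large this part is was not tested. Igfbpl1 had differences of 0.54, 0.25 and 1.44 at the later stages, and Bscl2 of 1.14, 0.89 and 2.34. Rtn1, in contrast, kept differences of 6.997, 6.19 and 6.04.

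Shares of identity genes among Stmn2 cells also differed between stages. Sim1 was at 10 or more in 58.3% of Stmn2 cells at E10.5, and in 21.2%, 8.89% and 5.88% at the 3 later stages. In the same order of stages Nkx6-1 was at 10 or more in 50%, 15.4%, 5.19% and 4.202%, and Lhx5 in 66.7%, 36.5%, 21.5% and 15.97%. Nr4a2 ran the other way, at 8.33% of Stmn2 cells at E10.5 and 57.7%, 44.4% and 51.3% later, and so did Slc17a6, at 33.3% and then 61.5%, 48.9% and 57.98%. EGFP was at 10 or more in 33.3%, 25%, 18.5% and 17.65% of Stmn2 cells, and Nhlh1 in 41.7%, 34.6%, 12.6% and 15.1%. The E10.5 shares rest on 12 cells. A share of 33.3% of these has an exact interval of 9.92 to 65.1, which holds all later shares of EGFP and Slc17a6. For Nhlh1 the E10.5 interval was 15.2 to 72.3, which holds its E11.5 share. Lhx5, Sim1 and Nkx6-1 were named above as higher in these 12 cells, so part of their fall may be fixed by that choice, which was not tested.

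**Figure D4:**
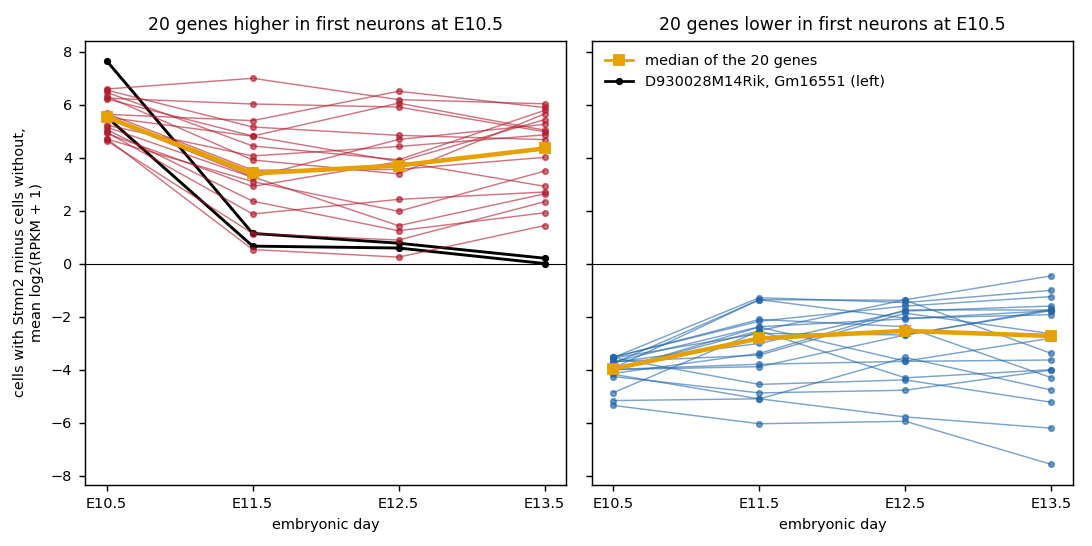
Differences of mean log2(RPKM + 1), Stmn2 cells minus other cells of the same stage, on the vertical axis, from E10.5 to E13.5, with the 20 higher genes at the left and the 20 lower genes at the right. Each line is a gene and the orange line is the median. The black lines, D930028M14Rik and Gm16551, drop from 7.65 and 5.54 at E10.5 to 0.21 and 0.01 at E13.5. The medians of the 20 higher and the 20 lower genes start at 5.53 and -3.96 and end at 4.35 and -2.73. All were chosen for their differences at E10.5, so part of each drop in size was fixed by the choice.

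The pools of 100 cells gave replicated libraries that the rule did not use, and they were compared by limma on log2(RPKM + 1) with Benjamini-Hochberg adjustment over 15871 genes. As no embryo is named, its p-values measure the spread between pools, which may be technical. At E10.5, GFP positive pools were set against GFP negative pools to see on which side of the sort the genes of first neurons fell. A lower value in a pool may mean fewer cells of a type or less RNA per cell, which cannot be told apart. The background over all genes was 4.51% called higher and 8.64% called lower in GFP positive pools.

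Neuronal genes of the first neurons were lower on the GFP positive side. Stmn2 had a lowest, median and highest value of 16.6, 52.97 and 87.1 RPKM in GFP positive pools, against 343, 490.4 and 645 in GFP negative pools, with no overlap (log2 difference -3.38 ± 0.26, SE, n = 6 each; limma adjusted p = 5.1e-10). D930028M14Rik had 23.8, 34.4 and 60.8 RPKM in GFP positive pools, against 151.5, 269 and 342 in GFP negative pools, also apart (-2.82 ± 0.36; limma adjusted p = 2.65e-06). Gm16551 averaged 6.23 ± 5.06 RPKM in GFP positive pools, against 68.9 ± 16.05 in GFP negative ones (SD), a difference of -3.55 ± 0.53 (limma adjusted p = 2.09e-05). Ina averaged 8.51 ± 5.27 RPKM in GFP positive pools, against 140.4 ± 44.2 in GFP negative ones (-4.07 ± 0.28; limma adjusted p = 5.69e-11), the largest difference among the 20. Nhlh2 had 10.98, 21.2 and 40.96 RPKM in GFP positive pools, against 33.3, 59.4 and 74.5 in GFP negative ones, which overlap (-1.38 ± 0.22; limma adjusted p = 6.83e-05).

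Over the 20 higher genes of first neurons, 19 were lower in GFP positive pools and 0 higher (median -1.99, against -0.01 over all genes). Edil3 alone did not pass, at -0.49 (limma adjusted p = 0.103). Of the 20 lower genes, 9 were higher in GFP positive pools and 0 lower (median 0.68). Id3 averaged 1387 ± 254 RPKM in GFP positive pools, against 438 ± 41.8 in GFP negative ones (1.65 ± 0.28; limma adjusted p = 0.000102), and Wls 197 ± 12.51 RPKM in GFP positive pools, against 52.1 ± 3.68 in GFP negative ones (1.90 ± 0.24; limma adjusted p = 1.53e-06). Nes, at 74.2 ± 8.43 in GFP positive pools, against 50.6 ± 6.98 in GFP negative ones, did not pass (0.55 ± 0.19; limma adjusted p = 0.058). With only the 12 E10.5 pools in the fit, 14 of the 20 lower genes were called higher and 1 lower.

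By list, 21 of 21 pan-neuronal, 15 of 18 proneural, 15 of 16 synaptic and 9 of 14 RNA-binding genes were lower in GFP positive pools, with 0 higher in any of these lists. Of 14 mitosis genes 3 were higher and 0 lower, and of 12 DNA replication genes none was called. Lhx5, Nkx6-1 and Sim1 were lower too, with Lhx5 at 9.83 ± 4.13 RPKM in GFP positive pools, against 50.7 ± 9.64 in GFP negative ones (-2.32 ± 0.31; limma adjusted p = 5.16e-06), Nkx6-1 at 6.84 ± 1.87 in GFP positive pools, against 35.8 ± 8.88 in GFP negative ones (-2.22 ± 0.33; limma adjusted p = 2.06e-05), and Sim1 at 6.00 ± 1.47 in GFP positive pools, against 18.7 ± 4.004 in GFP negative ones (-1.49 ± 0.31; limma adjusted p = 0.00118). GFP negative pools also carried other cell types. Summed markers of red blood cells ran from 27.6 to 82.1 RPKM in GFP positive pools, against 35.1 to 71198 in GFP negative ones, those of microglia from 0 to 1.14 in GFP positive pools, against 0 to 631 in GFP negative ones, those of mesenchyme from 13.95 to 31.1 in GFP positive pools, against 114.6 to 268 in GFP negative ones, and those of endothelium from 0.872 to 3.29 in GFP positive pools, against 2.33 to 94.9 in GFP negative ones. Their part in these differences was not tested.

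E13.5 pools were also set against E10.5 pools of the same GFP class, contrasts that share the E10.5 pools with the comparison above. Backgrounds were 22.1% higher and 29.6% lower at E13.5 in GFP positive pools, and 19.7% and 26.9% in GFP negative pools. Of the 20 higher genes of first neurons, 18 rose and 2 fell in GFP positive pools (median 2.80), and 16 rose and 2 fell in GFP negative pools (1.12). The 20 lower genes all fell in both classes (medians -2.60 and -2.84). Markers of other cell types also fell in GFP negative pools, in 8 of 8 microglia (median -3.23), 8 of 8 mesenchyme (-2.84), 6 of 7 tested red blood cell (-3.98) and 2 of 4 tested endothelial genes (-1.03), and in GFP positive pools in 0 of 8, 3 of 8, 2 of 7 and 0 of 4 of the same lists. Summed mesenchyme markers, for example, lay between 0.568 and 5.52 RPKM in E13.5 GFP negative pools and between 114.6 and 268 RPKM in E10.5 GFP negative pools. Their part in the stage differences was not tested. Nsg2 averaged 853 ± 100.8 RPKM in E13.5 and 28.04 ± 14.1 in E10.5 GFP positive pools (5.01 ± 0.20; limma adjusted p = 1.26e-16). The genes that fell were D930028M14Rik and Gm16551. In GFP negative pools D930028M14Rik had 45.1, 73.95 and 107.9 RPKM at E13.5 against 151.5, 269 and 342 at E10.5, with no overlap (-1.81 ± 0.36; limma adjusted p = 0.000186). In GFP positive pools it had 5.67, 17.998 and 51.7 RPKM at E13.5 against 23.8, 34.4 and 60.8 at E10.5, which overlap (-0.87 ± 0.36; limma adjusted p = 0.0471).

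Gm16551 averaged 6.98 ± 3.19 RPKM in E13.5 and 68.9 ± 16.05 in E10.5 GFP negative pools (-3.24 ± 0.53; limma adjusted p = 1.36e-05), and 2.62 ± 4.79 in E13.5 and 6.23 ± 5.06 in E10.5 GFP positive pools (-1.43 ± 0.53; limma adjusted p = 0.0254). The 2 calls in GFP positive pools rest on single pools: of 12 fits that each left out 1 pool, both calls were lost in 5 (without E10.5 GFP positive replicate 3 or 5, or E13.5 GFP positive replicate 1, 2 or 6), and 1 of them in 4 (without E10.5 GFP positive replicate 2, 4 or 6, or E13.5 GFP positive replicate 4). Nhlh2 averaged 54.9 ± 8.07 RPKM in E13.5 and 59.3 ± 14.8 in E10.5 GFP negative pools, a difference that did not pass the test (-0.08 ± 0.22; limma adjusted p = 0.797).

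**Figure D5:**
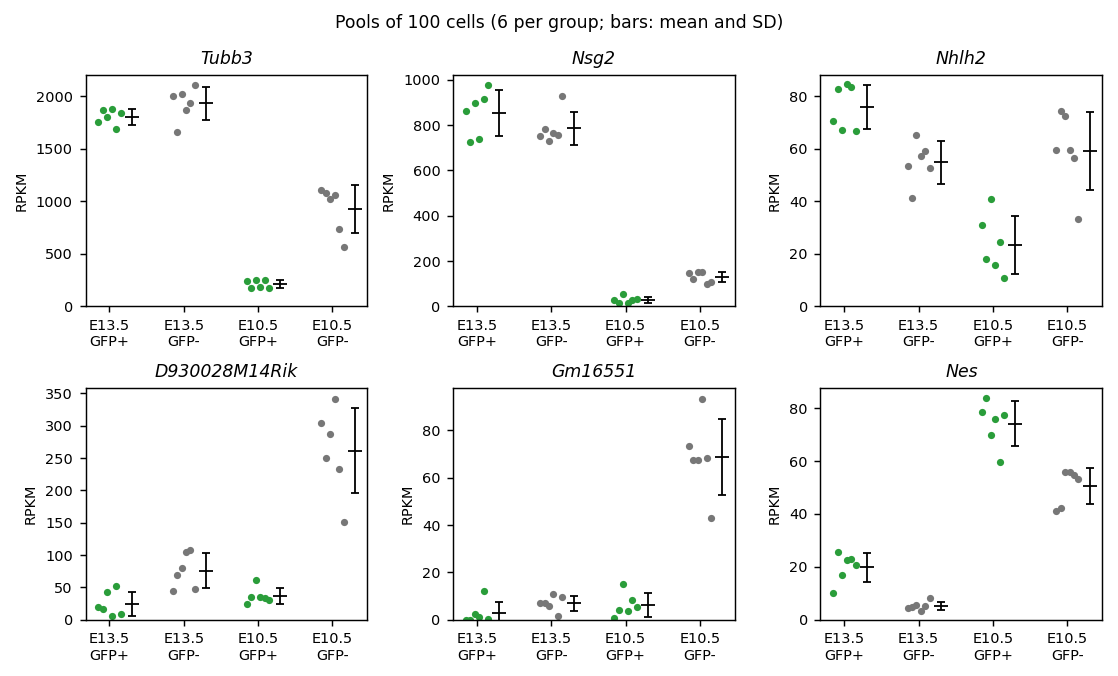
RPKM of 6 genes in single pools, with the mean and SD of each group, in the order E13.5 GFP positive, E13.5 GFP negative, E10.5 GFP positive and E10.5 GFP negative from left to right (6 pools each). Tubb3 and Nsg2 are highest at E13.5, while D930028M14Rik and Gm16551 are highest in E10.5 GFP negative pools, with means of 261 and 68.9 RPKM.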

How the data were processed

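Per the labels, libraries were prepared by Smart-seq2 with Nextera XT tagmentation, and the submitters' processing notes name STAR 2.3.0 and mm10. The sources used here do not give the counter, annotation, strand setting or filters. The authors deposited RPKM of 23706 genes for the pools and log2 values of 25489 genes for the cells, formed as log2(RPKM + 0.001) as the deposited minimum shows, which were turned back into RPKM. Read counts were not used here, so depth was estimated from the step between low values (a median of 40.8% of low values in E10.5 cells lay within 0.05 of a whole read, against 10% by chance). Pools had 1.30 to 3.67 M reads by this estimate. Intervals cover counting error only. For a count of 0, the share said to be allowed is 3 cells out of the group, a rougher limit than the exact interval. The exact interval reaches 2.91% for 0 of 125 cells and 26.5% for 0 of 12.

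Of the 137 E10.5 cells, 12 were first neurons and 125 were not, and E11.5, E12.5 and E13.5 held 90, 178 and 145 cells, of which 52, 135 and 119 had Stmn2 at 10 RPKM or more. The 12 deepest E10.5 cells have title numbers 162 to 176, and the others 1 to 161. Genes were kept if they reached 1 RPKM in 7 E10.5 cells, in 5% of cells at later stages or in 6 pools. Gene lists of the E10.5 cells were counted over all members in the data, kept or not. Pools were fitted with limma 3.58.1 (R 4.3.3) with 4 group means, a variance trend and Benjamini-Hochberg adjustment, with calls at an adjusted p under 0.05. Cells were described with Python 3.11.15, pandas 2.3.3, numpy 2.4.6 and scipy 1.17.1, and figures drawn with matplotlib 3.10.9. Both steps were tested on simulated data. The simulated cells were drawn from normal curves with raised means and no difference in depth. The many zeros and the depth difference of the real cells were therefore not covered by that test. Named genes were the 20 per direction described above, members of 25 gene lists and the reporter. The members and lists were chosen with earlier results of these data known. No doublet caller was run, and no pair of cell columns was identical.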

Additional observations from a re-analysis of the deposited data

Results flagged for a closer look

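In groups of 6 pools, 10 genes were looked at in 4 groups each for a single pool far from the others, and 2 of these 40 groups held one, where chance gives about 1 in 20. D930028M14Rik reached 60.8 RPKM in 1 E10.5 GFP positive pool, while the other 5 lay between 23.8 and 35.7. The gap was 0.678 of the range of the group, above the critical value of 0.625. Nsg2 reached 928 RPKM in 1 E13.5 GFP negative pool, while the other 5 lay between 731 and 781, a gap of 0.747 of the range.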

How the results depend on the processing

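Of 13778 genes, 2341 were higher and 1094 lower by at least 2-fold in first neurons. A pseudocount of 0.1 gave 3916 and 1924, one of 10 gave 727 and 357, and cells with EGFP or Lmx1a at 10 or more gave 3996 and 610. With other cells limited to the range of genes detected in first neurons, 1755 genes (13.05%) were higher and 1761 (13.10%) lower. The excess of higher over lower genes was thus absent in that setting. Sets chosen after seeing the data gave 2888 lower genes at an estimated depth of at least 4 M reads and 2092 with EGFP and Lmx1a under 10. Without single first neurons the counts ran from 2263 to 2648 and from 1029 to 1436. Of the 40 named genes, 39 kept 1 sign and 35 stayed past 1 under these and the other settings, which their choice as the most extreme in the same cells largely fixed. The mitosis median reversed to 0.35 in cells with EGFP or Lmx1a, where the median over all genes was 0.40. In pools, leaving out single libraries gave 597 to 691 higher (715 with all) and 1168 to 1309 lower (1371) for the E10.5 GFP comparison, 3337 to 3463 (3506) and 4490 to 4613 (4697) for stage in GFP positive pools, and 2909 to 3085 (3126) and 3953 to 4144 (4262) in GFP negative pools. The fall of D930028M14Rik and Gm16551 in GFP positive pools was also lost for both with a pseudocount of 10 or with only the 12 pools compared, and for 1 of them with no filter, with pools scaled to equal sums or with no variance trend. Where no value above shows it, the cause was not tested. With 12 first neurons, and cells 9 to 12 unlike the rest, shares are imprecise, and depth and title number cannot be told apart. No paired analysis was possible because the labels give pools no replicate numbers: those used here follow accession order and only name a pool.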

Other observations

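Other gene groups of the first neurons differed less. Over all genes tested, 17% were higher and 7.94% lower by at least 1, and the short lists below cannot be set apart from that. Of 3 SoxC transcription factors, which act in new neurons, 1 was higher by at least 1. This was Sox4, at a lowest, median and highest value of 0, 42.2 and 241 RPKM in first neurons and 0, 1.32 and 126.9 in other cells (difference of mean log2(RPKM + 1) 2.501), while Sox11 differed by 0.50 and Sox12 by 0.74. Of 10 early response and heat shock genes 3 were higher and 1 lower (median 0.71). Ier2 was at an RPKM of at least 10 in 11 first neurons and 76 other cells (2.303), Egr1 in 7 first neurons and 33 other cells (2.28) and Junb in 5 first neurons and 3 other cells (2.26), whereas Fosb was in 0 first neurons and 27 other cells (-1.24).

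Receptors and adhesion molecules of growing axons varied between members. Ncam1, a cell adhesion molecule, was at an RPKM of at least 10 in 10 first neurons and 49 other cells (3.90), Robo1, a receptor for Slit proteins, in 6 first neurons and 10 other cells (3.15), and Dcc, a netrin receptor, in 6 first neurons and 28 other cells (2.61). The chemokine receptor gene Cxcr4 was lower, with 3 first neurons and 57 other cells at 10 or more (-1.45), as was the semaphorin co-receptor gene Nrp2, with 2 first neurons and 44 other cells (-1.16). Lists of other neuron classes could hardly be compared, since 0 of 10 motor neuron, 2 of 12 GABAergic and 0 of 4 serotonergic genes reached 1 RPKM in 7 or more E10.5 cells.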
